A study of Arabidopsis thaliana with 6 samples.

Results

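Class III peroxidases are secreted plant enzymes that carry a heme group and reduce hydrogen peroxide while oxidising a second substrate, often a phenolic compound of the cell wall. They cross-link lignin, suberin and wall proteins, which stiffens the wall, and in another reaction cycle they make reactive oxygen that loosens it or that is released against pathogens. Arabidopsis has a large family of these genes, many of them active in roots, and several stand side by side on the chromosomes. Probe sets were taken where the platform annotation gave them exactly 1 locus and that locus was among 60 listed class III peroxidase genes. This held for 43 genes, each with 1 probe set, among 22746 tested probe sets. The other 17 listed genes had no probe set of their own in the annotation used here. Of these, 6 neighbouring genes (AT2G18140 and AT2G18150, AT2G38380 and AT2G38390, AT4G37520 and AT4G37530) shared 3 probe sets annotated to several genes, and their levels were not analysed here.

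Transcripts were measured in whole 10-day-old Arabidopsis thaliana seedlings of the Columbia ecotype, grown under continuous light on agar medium with sucrose. Seedlings of a transgenic genotype that overexpressed the cDNA of the rice gene OsTOP6A1 gave 3 arrays, and wild type seedlings gave 3 arrays. OsTOP6A1 is the rice A1 subunit of topoisomerase 6, an enzyme that cuts and rejoins double-stranded DNA. The labels call the samples of a genotype biological replicates, name neither the promoter of the transgene nor the number of independent lines, and the level of the rice transcript was not analysed here.

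Intensities are in the authors' linear units, in which array medians lay between 37.5 and 39.3. Correlations across probe sets lay between 0.975 and 0.978 for arrays of different genotypes, and between 0.991 and 0.995 for arrays of the same genotype. Of the root markers PYK10, NAI2, EXPA7 and EXPA18, 0 of 4 measured of 7 listed passed the test, and their summed intensity was 3845 to 4375 in OsTOP6A1 seedlings and 3790 to 4329 in wild type seedlings. The green tissue markers RCA, LHCB4.1 and PSAE-1 gave 0 of 3 measured of 6 listed, with sums of 10474 to 11458 in OsTOP6A1 seedlings and 9475 to 11247 in wild type seedlings. The ratio of the 3′ to the 5′ control probe sets, a sign of RNA integrity, was 1.31 to 1.46 in OsTOP6A1 seedlings and 1.36 to 1.44 in wild type seedlings for GAPDH. For actin it was 16.4 to 22.2 in OsTOP6A1 seedlings and 17.7 to 20.3 in wild type seedlings. Another pair of actin control probe sets gave a much smaller ratio. Its 3′ probe set read 2326.9 to 2490.9 and its 5′ probe set 919.4 to 992.9 in OsTOP6A1 seedlings. In wild type seedlings they read 2461.8 to 2684.9 and 1131.9 to 1228.5, so the high actin ratio depended on the probe sets used. For ubiquitin the ratio was 2.44 to 2.99 in OsTOP6A1 seedlings and 3.17 to 4.49 in wild type seedlings. The part of these ratios in the results below was not tested. In whole seedlings, fewer cells of a type and less RNA per cell cannot be told apart.

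The comparison of OsTOP6A1 with wild type seedlings asks which of the peroxidase transcripts differed between the genotypes. Of the 43 genes, 4 rose, 8 fell and 31 did not pass an adjusted p of 0.05 in limma. The rises were led by AT3G21770, whose mean intensity was 2.23-fold higher in OsTOP6A1 seedlings, and the falls by AT5G19890, whose mean was 2.35-fold lower. The genes that fell included AT4G26010, a root hair peroxidase, and AT4G21960 (PRXR1), whose probe set gave the highest intensities of the 43. Changes were mostly modest, since 1 of the 43 genes both passed and reached a log2 fold change of 1 in size, as did 1.65% of all tested probe sets.

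The 12 genes past the threshold made up 27.9% of the family members measured, beside 16.5% over all tested probe sets. By direction, 9.3% of the genes rose, beside 8.18% of all probe sets, and 18.6% fell, beside 8.31%. Among probe sets with a mean of at least 16 over the 6 arrays, 11 of 31 peroxidase genes passed (35.5%), beside 22.3% of the 14745 tested probe sets of that kind. The arrays of the genotypes did not overlap for 15 of the 43 genes, or 34.9%, and for 34.9% of all tested probe sets. By this measure the peroxidase genes were separated no more often than other transcripts, and whether their share of calls differed from the rest was not tested. The median log2 fold change was -0.10 over the 43 genes and -0.02 over all probe sets, and its median size was 0.20 over the 43 genes and 0.13 over all probe sets. All fold changes on the log2 scale are of intensity + 16, which understates the change of dim probe sets.

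**Figure D1:**
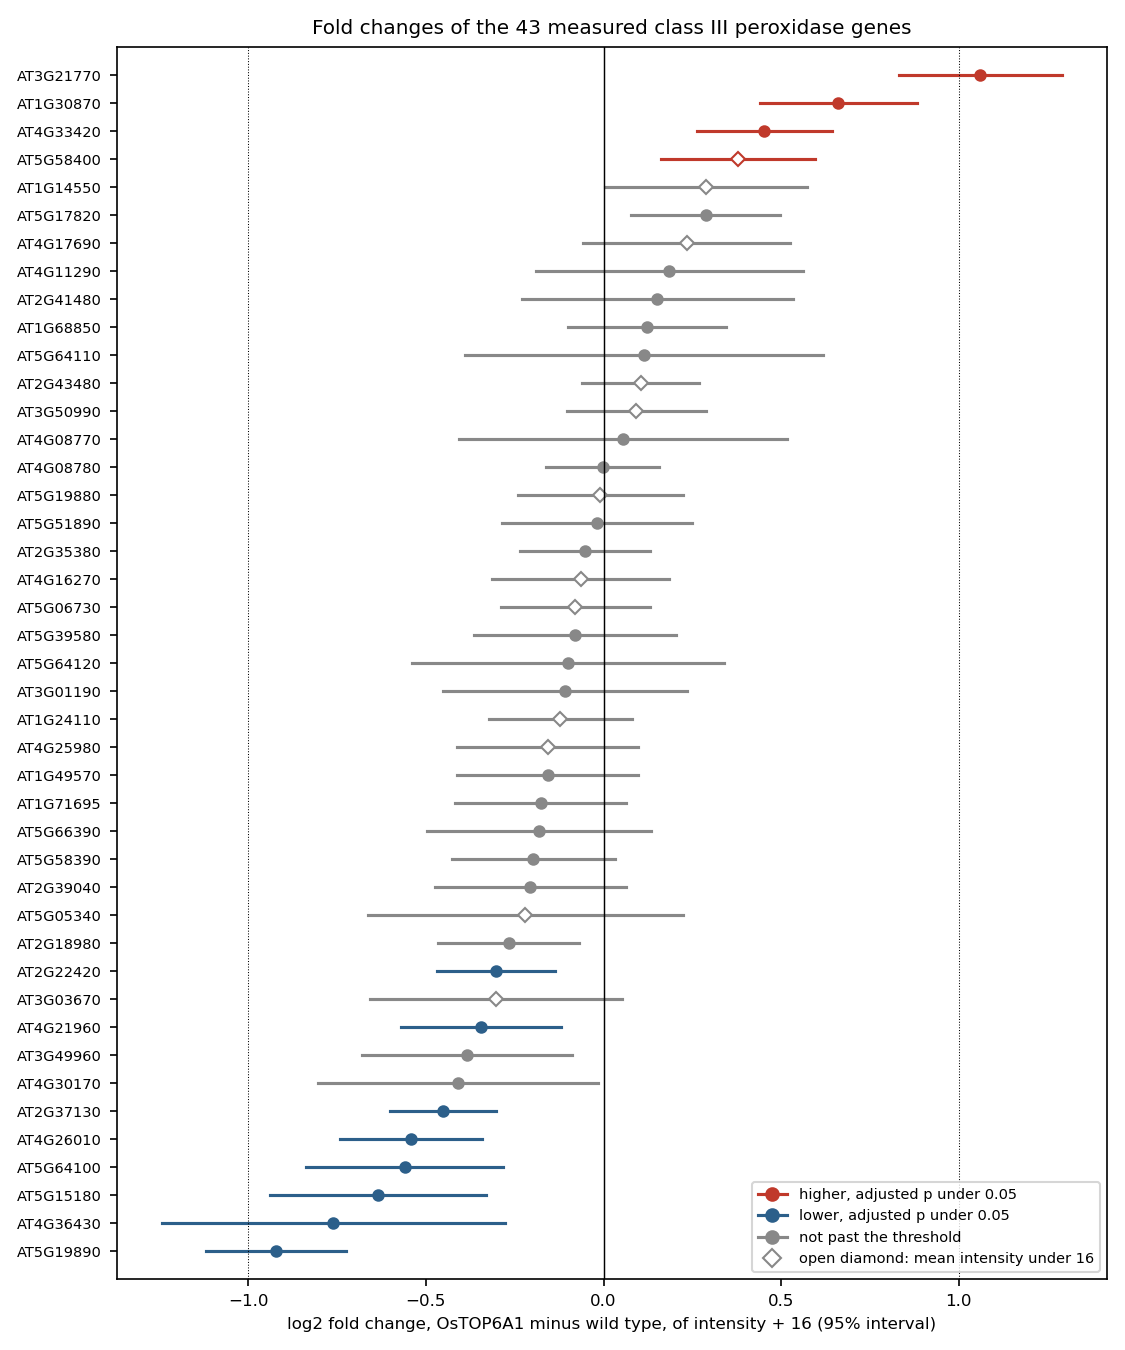
Log2 fold change of intensity + 16 (x axis, OsTOP6A1 minus wild type, points) with its 95% interval (lines) for the 43 measured genes (y axis), with dotted lines at 2-fold. The 4 genes that rose stand at the top and the 8 that fell lie toward the bottom, with grey genes that did not pass between and among them. AT3G21770 alone has a point past a dotted line.

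AT3G21770 had intensities of 257.6, 326.1 and 325.3 in OsTOP6A1 seedlings and of 140.9, 134.4 and 133.1 in wild type seedlings. Every OsTOP6A1 array lay far above every wild type array, and replicate 1 was the lowest of the 3 OsTOP6A1 arrays. The means were 303.0 ± 39.3 in OsTOP6A1 seedlings and 136 ± 4.18 in wild type seedlings (SD, n = 3 each). On the log2 scale the gene rose by 1.06 (SE 0.10, limma adjusted p = 0.000511), which stood at the 99.0th percentile of the fold changes of all tested probe sets.

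AT1G30870 had intensities of 95.2, 103.9 and 125.1 in OsTOP6A1 seedlings, against 61.5, 64.1 and 60.8 in wild type seedlings. The wild type arrays were close together and the OsTOP6A1 arrays spread more widely above them. It rose by 0.66 on the log2 scale (SE 0.09, limma adjusted p = 0.0039), from a mean 1.74-fold higher in OsTOP6A1 seedlings.

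AT4G33420, a peroxidase linked to the lignification of vessels, had intensities of 93.8, 83.8 and 85.3 in OsTOP6A1 seedlings and of 65.9, 59.5 and 54.0 in wild type seedlings. The genotypes did not overlap, and the mean was 1.47-fold higher in OsTOP6A1 seedlings. This rise of 0.45 on the log2 scale (SE 0.08, limma adjusted p = 0.00954) was a call that ended without variance moderation (adjusted p = 0.051).

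The last rise, AT5G58400, was that of a probe set with an intensity under 16 on every array. It read 7.6, 7.9 and 6.2 in OsTOP6A1 seedlings and 1.1, 4.3 and 0.4 in wild type seedlings. All 3 OsTOP6A1 arrays lay above the wild type arrays, within the range where 34.9% to 36.0% of all probe sets of an array lie. The log2 fold change of 0.38 (limma adjusted p = 0.0311) lost its call when any array but wild type replicate 2 was left out (adjusted p of up to 0.101), at pseudocounts of 1 and 64 (adjusted p = 0.0953 and 0.0624) and without variance moderation (adjusted p = 0.112).

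Among the falls, AT5G19890 had intensities of 33.4, 26.0 and 33.6 in OsTOP6A1 seedlings and of 70.0, 76.1 and 72.3 in wild type seedlings. The highest OsTOP6A1 array lay below the lowest wild type array by more than the spread within either genotype. The means were 31.0 ± 4.33 in OsTOP6A1 seedlings and 72.8 ± 3.08 in wild type seedlings (SD, n = 3 each). The gene fell by 0.92 on the log2 scale (SE 0.08, limma adjusted p = 0.000481), at the 0.585th percentile of all tested probe sets.

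AT2G37130 had intensities of 173.4, 188.9 and 177.6 in OsTOP6A1 seedlings, against 252.2, 255.5 and 248.1 in wild type seedlings. Both genotypes were tight, and the mean was 1.40-fold lower in OsTOP6A1 seedlings. AT2G37130 fell by 0.45 on the log2 scale (SE 0.06, limma adjusted p = 0.00352).

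AT4G26010, which acts in root hair growth, had intensities of 111.3, 135.0 and 129.2 in OsTOP6A1 seedlings and of 202.0, 184.0 and 181.7 in wild type seedlings. All OsTOP6A1 arrays were below all wild type arrays, and the mean was 1.51-fold lower in OsTOP6A1 seedlings. It fell by 0.54 on the log2 scale (SE 0.09, limma adjusted p = 0.00579). Neither EXPA7 nor EXPA18, expansins of root hairs, passed, and their log2 fold changes were 0.04 and 0.06.

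AT5G64100 gave 406.4, 533.6 and 544.2 in OsTOP6A1 seedlings and 676.3, 768.6 and 751.2 in wild type seedlings. Replicate 1 was the lowest array of both genotypes, and the genotypes did not overlap. AT5G64100 fell by 0.56 on the log2 scale (SE 0.12, limma adjusted p = 0.0186), and lost its call without wild type replicate 2 or 3 (adjusted p = 0.0677 and 0.0674), at a pseudocount of 1 (adjusted p = 0.0674) and without variance moderation (adjusted p = 0.106).

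AT5G15180 gave 39.3, 28.6 and 27.7 in OsTOP6A1 seedlings and 70.9, 51.1 and 53.3 in wild type seedlings. Here replicate 1 was the highest array of both genotypes. AT5G15180 fell by 0.64 on the log2 scale (SE 0.13, limma adjusted p = 0.0161), and this call ended without OsTOP6A1 replicate 2 or 3 (adjusted p = 0.0636 and 0.0642), at a pseudocount of 1 (adjusted p = 0.0535) and without variance moderation (adjusted p = 0.103).

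AT4G36430 had the widest spread of the 12 genes on the log2 scale, with 30.7, 50.1 and 66.9 in OsTOP6A1 seedlings and 110.1, 90.6 and 76.7 in wild type seedlings. The highest OsTOP6A1 array came near the lowest wild type array. The gene fell by 0.76 on the log2 scale (SE 0.21, limma adjusted p = 0.0449), and the call was lost without each array except OsTOP6A1 replicate 3, with adjusted p of up to 0.117. With all arrays it was also lost with quantile normalization (adjusted p = 0.0567), at pseudocounts of 1 and 64 (adjusted p = 0.124 and 0.0525), without variance moderation (adjusted p = 0.189) and with the replicate number as a block (adjusted p = 0.079).

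AT4G21960 (PRXR1) had intensities of 2307.4, 2450.7 and 2552.3 in OsTOP6A1 seedlings, against 2747.9, 3478.3 and 3112.6 in wild type seedlings. The genotypes were apart by a narrow margin, and the mean was 1.28-fold lower in OsTOP6A1 seedlings. The log2 fold change was -0.35 (SE 0.10, limma adjusted p = 0.049), and the call ended without each array except wild type replicate 1 (adjusted p of up to 0.129), with median centring (adjusted p = 0.0702), at a pseudocount of 1 (adjusted p = 0.126) and without variance moderation (adjusted p = 0.145).

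AT2G22420, a peroxidase linked to lignified tissue, had intensities of 20.0, 18.8 and 19.9 in OsTOP6A1 seedlings and of 26.8, 25.7 and 31.2 in wild type seedlings. The genotypes did not overlap, at low intensity. The fall of 0.30 on the log2 scale (SE 0.07, limma adjusted p = 0.0271) was no longer called without any 1 of 4 arrays, those other than wild type replicates 1 and 2 (adjusted p of up to 0.0881), nor with an intensity trend (adjusted p = 0.0582) or without variance moderation (adjusted p = 0.059).

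**Figure D2:**
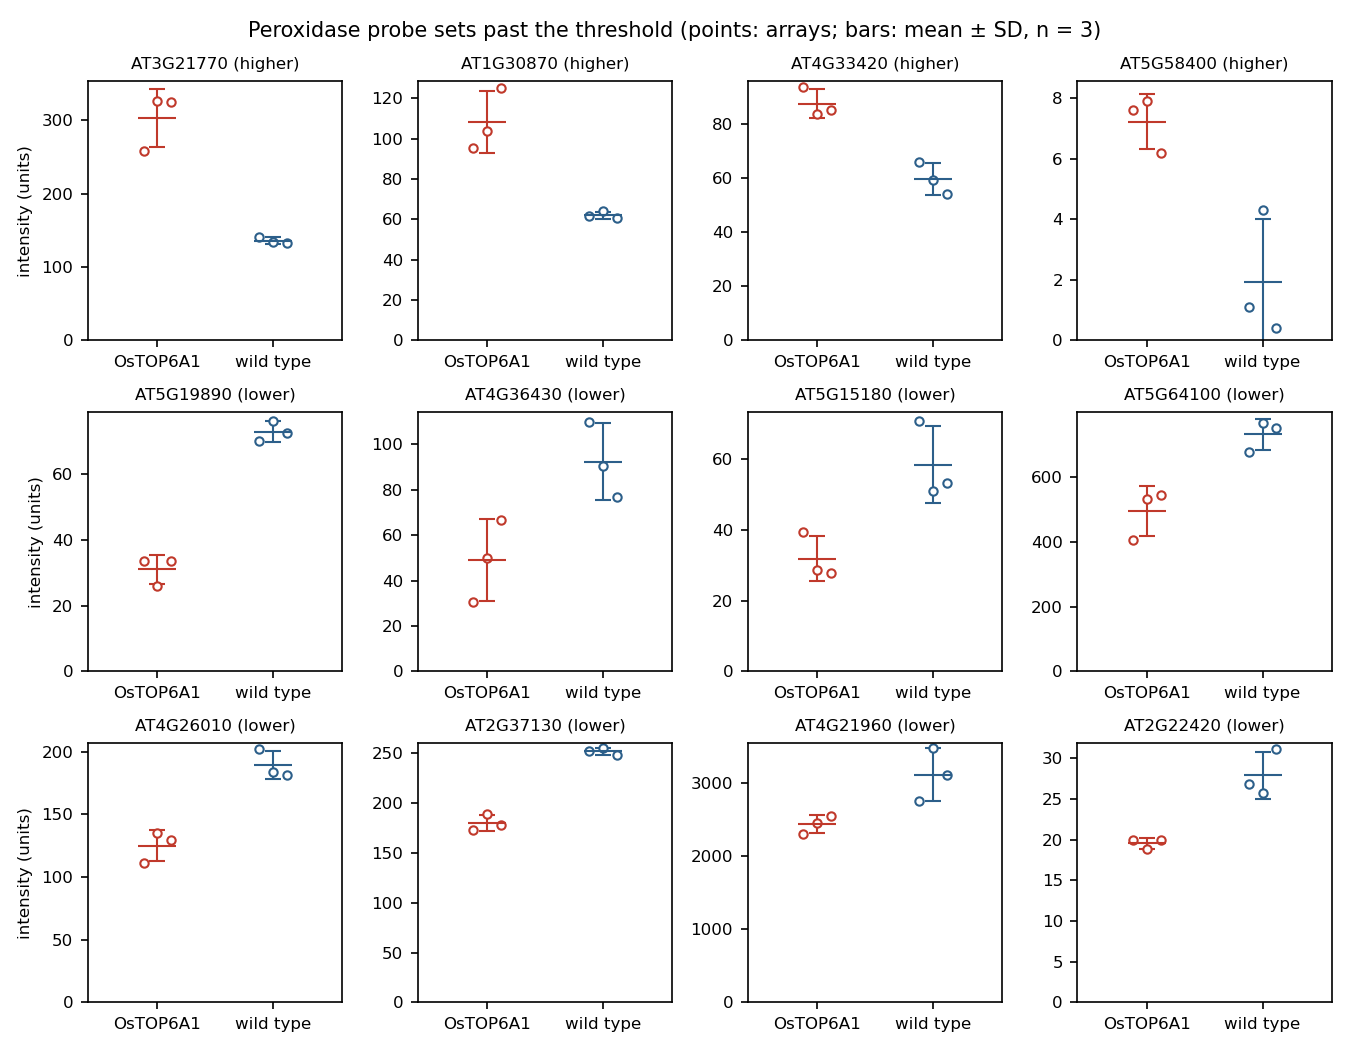
Intensity (y axis, linear units from 0) of the 12 genes past the threshold on each OsTOP6A1 array (red points, left) and each wild type array (blue points, right), with the mean and SD of 3 arrays. No gene has overlapping genotypes, and the gap is narrowest relative to the spread for AT4G36430 and AT4G21960.

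The 12 calls were of unequal firmness. Without any single array AT3G21770, AT1G30870, AT4G33420, AT5G19890, AT2G37130 and AT4G26010 kept their calls, and 5 of these 6, all but AT4G33420, also kept them in the 9 other alternatives. Of the 12, 0 changed direction in the 15 alternatives, of which AT5G58400 was not tested in 1. Over the 43 genes, leaving out single arrays gave 3 or 4 rises and 4 to 7 falls. The rises then included AT5G17820 without OsTOP6A1 replicate 1 and AT5G64110 without wild type replicate 1, neither among the 12. The 8 falls became 4 without OsTOP6A1 replicate 2 or wild type replicate 3, and 5 without OsTOP6A1 replicate 1 or 3 or wild type replicate 2.

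**Figure D3:**
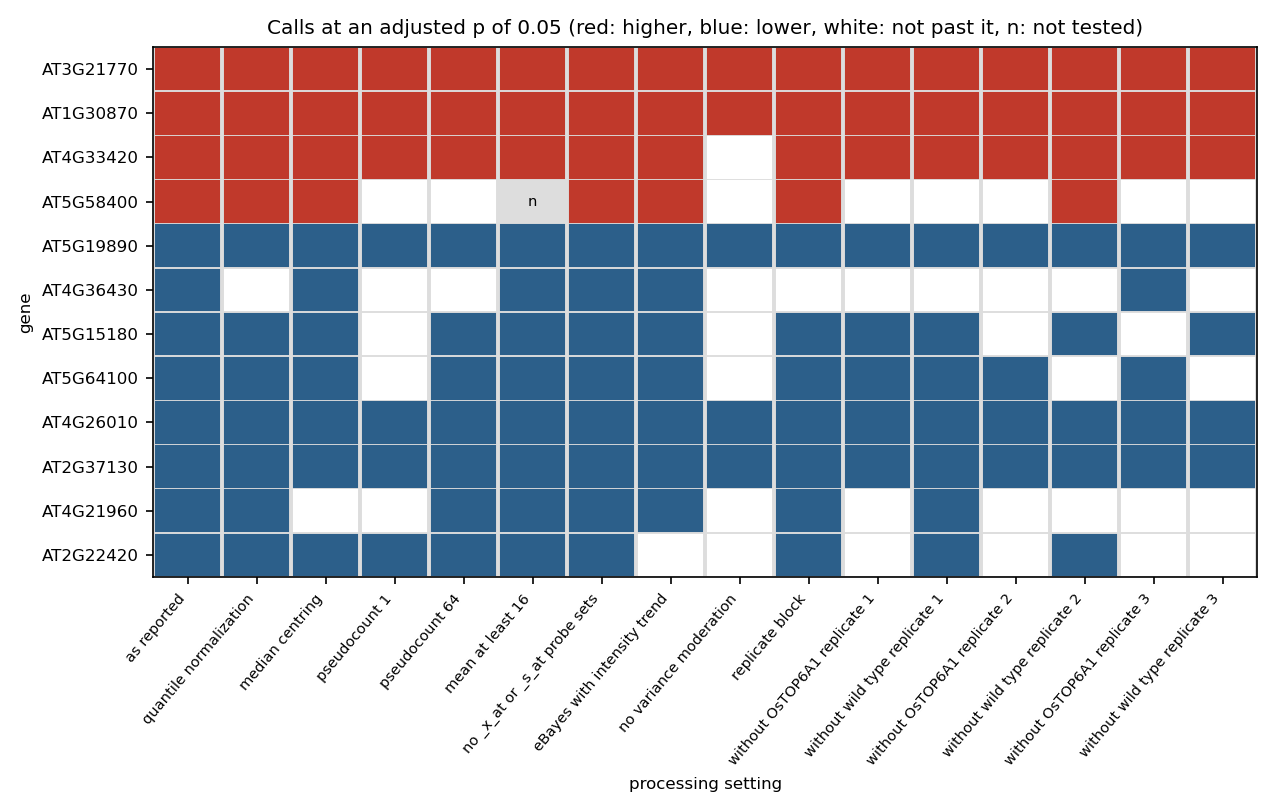
Calls of the 12 genes (y axis) at an adjusted p of 0.05 under the reported setting and 15 alternatives (x axis), where red marks a call as higher in OsTOP6A1, blue a call as lower, white no call and n a probe set that was not tested. The rows of AT3G21770, AT1G30870, AT5G19890, AT4G26010 and AT2G37130 are filled throughout, and that of AT4G36430 has the most white cells.

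Peroxidases with a known part in lignin deposition had a few calls, in both directions. Of the 11 on the list, 8 were measured, of which 1 rose (AT4G33420), 2 fell (AT2G22420 and AT4G36430) and 5 did not pass, with a median log2 fold change of -0.14. Over all tested probe sets 8.18% rose and 8.31% fell. Of the 15 alternatives, AT4G33420 kept its call in 14, AT2G22420 in 9 and AT4G36430 in 5. PRX72 (AT5G66390), needed for normal stem lignin, had means of 62.5 ± 14.3 in OsTOP6A1 seedlings and 72.2 ± 5.73 in wild type seedlings (SD, n = 3 each). PRX25 (AT2G41480) had a log2 fold change of 0.15 (95% interval -0.23 to 0.53), and AT5G51890, active in vessels, of -0.02 (95% interval -0.29 to 0.25). PRX52 (AT5G05340), which acts in lignin of fibres, was under 16 on every array, with 4.8, 3.3 and 1.1 in OsTOP6A1 seedlings and 13.5, 0.8 and 5.9 in wild type seedlings. PRX71 (AT5G64120), which strengthens walls and limits growth, had 563.7, 776.5 and 784.4 in OsTOP6A1 seedlings and 985.8, 644.1 and 668.1 in wild type seedlings. The ranges of PRX71 overlapped widely, replicate 1 being the lowest OsTOP6A1 array and the highest wild type array. Its log2 fold change was -0.10 (limma adjusted p = 0.783).

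Of 5 listed root hair peroxidases 2 were measured. Beside the fall of AT4G26010, AT3G49960 had 24.6, 35.8 and 37.5 in OsTOP6A1 seedlings and 42.3, 55.3 and 44.3 in wild type seedlings. Its genotypes did not overlap, but its log2 fold change of -0.39 (SE 0.13) did not pass (limma adjusted p = 0.082). Of 7 listed peroxidases of the oxidative burst and of responses to pathogens 4 were measured, of which AT2G37130 fell and 3 did not pass. Beside the counts of these 2 groups, 8.31% of all tested probe sets fell. Prx37 (AT4G08770), linked to phenolics of the wall, had 63.4, 120.9 and 109.2 in OsTOP6A1 seedlings and 93.9, 78.8 and 100.6 in wild type seedlings, and the OsTOP6A1 arrays bracketed the wild type arrays. AT5G39580 had a log2 fold change of -0.08 (95% interval -0.37 to 0.21). AT1G14550 was under 16 on every array, with 5.3, 9.7 and 6.8 in OsTOP6A1 seedlings and 0.6, 6.3 and 2.5 in wild type seedlings, and its log2 fold change of 0.29 did not pass (limma adjusted p = 0.159). The 1 listed cold-response peroxidase, RCI3 (AT1G05260), had no probe set of its own in the annotation.

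Genes outside the role lists also came near the threshold. AT5G17820 and AT2G18980, chosen after their values were seen, had genotypes that did not overlap and log2 fold changes of 0.29 (limma adjusted p = 0.0699) and -0.27 (limma adjusted p = 0.0738). AT5G17820 had 166.5, 208.9 and 196.0 in OsTOP6A1 seedlings and 146.3, 156.8 and 154.7 in wild type seedlings. AT2G18980 had 184.5, 200.4 and 212.5 in OsTOP6A1 seedlings and 251.2, 257.5 and 220.5 in wild type seedlings. AT4G30170, among the 5 probe sets of the 43 with the highest intensities, had means of 284 ± 58.1 in OsTOP6A1 seedlings and 380 ± 64.1 in wild type seedlings (SD, n = 3 each), which overlapped (limma adjusted p = 0.151). AT1G71695, also among these 5, had means of 271 ± 22.2 in OsTOP6A1 seedlings and 310 ± 37.0 in wild type seedlings (SD, n = 3 each, limma adjusted p = 0.30).

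The 31 genes that did not pass had log2 fold changes of -0.41 to 0.29, with a median of -0.08, and 21 of the 31 were negative. The 95% interval of each of the 31 lay within a 2-fold change in either direction on the scale of intensity + 16, which covers less of the true change for dim probe sets. Of the 43 probe sets, 11 were under 16 on all 6 arrays, which leaves little room to see a lower level, and 30 were at or above 16 on all 6. Of the 11, AT5G58400 passed and 10 did not.

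Neighbouring peroxidase genes were compared side by side, counting genes with at most 2 other protein-coding genes between them in the RefSeq gene order. The 60 listed genes held 14 such pairs, and both genes were measured in 6. In 4 of the 6 pairs 1 gene passed, in 2 pairs neither did, and in 0 pairs both passed, where 16.5% of all tested probe sets passed. Some genes of these pairs were too dim for a comparison, as given below. AT5G19890 fell by 0.92 on the log2 scale, while its neighbour AT5G19880 read 0.6, 2.9 and 0.3 in OsTOP6A1 seedlings and 0.4, 3.6 and 0.2 in wild type seedlings, a level too dim to show a fall. AT5G58390, next to the dim AT5G58400, had means of 80.3 ± 4.55 in OsTOP6A1 seedlings and 94.9 ± 13.1 in wild type seedlings (SD, n = 3 each) and did not pass. AT4G25980, near AT4G26010, was under 16 on every array, with means of 4.57 ± 2.22 in OsTOP6A1 seedlings and 6.93 ± 2.46 in wild type seedlings (SD, n = 3 each).

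The run of AT5G64100, AT5G64110 and PRX71 (AT5G64120) held 3 measured neighbours, of which AT5G64100 fell. AT5G64110 had 104.6, 94.7 and 89.6 in OsTOP6A1 seedlings and 136.6, 71.2 and 67.6 in wild type seedlings. Wild type replicate 1 stood high above the other wild type arrays for AT5G64110 and for PRX71, but was the lowest wild type array for AT5G64100. With all arrays the log2 fold change of AT5G64110 was 0.11 (limma adjusted p = 0.783), and without wild type replicate 1 it was 0.39 and passed (limma adjusted p = 0.026). Whether the fold changes of neighbours differed was not tested.

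**Figure D4:**
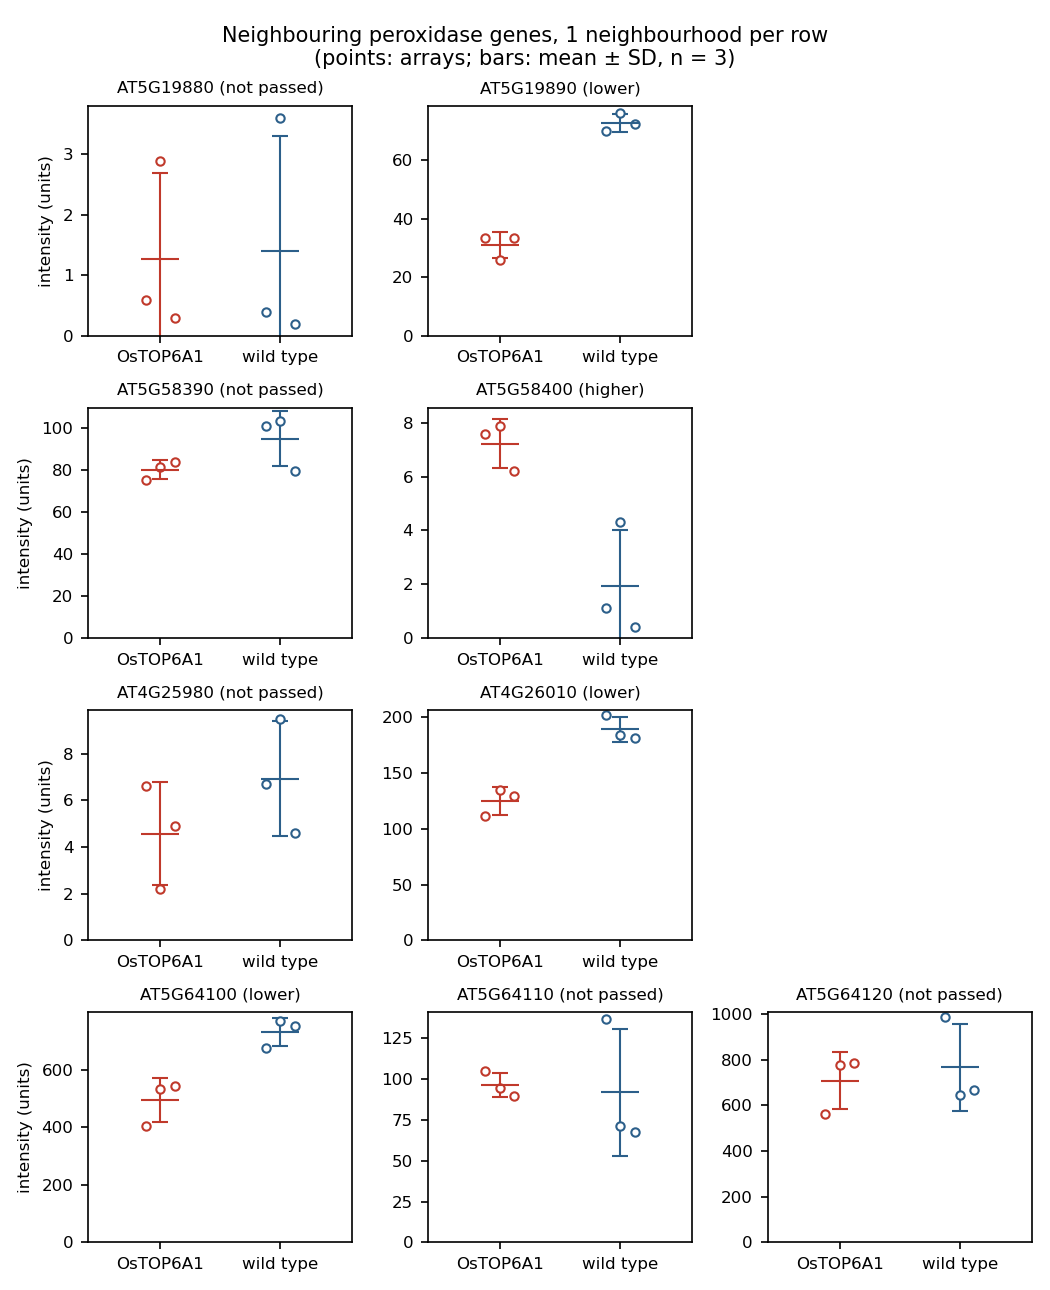
Intensity (y axis, linear units from 0) of neighbouring peroxidase genes, 1 neighbourhood per row, on OsTOP6A1 arrays (red points, left) and wild type arrays (blue points, right), with mean and SD of 3 arrays. In each row 1 gene is separated by genotype, and AT5G64110 and AT5G64120 have 1 wild type array, replicate 1, far above the other two.

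Within a genotype the peroxidase genes also varied between replicates. Of the 31 genes with a mean of at least 16, OsTOP6A1 replicate 1 was the lowest of its genotype for 20 (64.5%), beside 35.8% of all probe sets with such a mean. Wild type replicate 1 was the lowest of its genotype for 12 (38.7%), beside 35.6% of such probe sets. It was the highest for 13 (41.9%), beside 39.3%, so these shares were near those of all such probe sets. Replicate 1 was the highest array of both genotypes for 6 genes (19.4%), beside 18.5%. In 10 of the 31 genes (32.3%) replicate 1 was the lowest array of both genotypes, beside 15.4% of all probe sets with such a mean. These 10 were AT5G66390, AT5G64100, AT5G17820, AT3G49960, AT4G30170, AT4G21960, AT4G11290, AT3G01190, AT1G71695 and AT2G35380. AT4G11290, for example, read 55.7, 90.7 and 85.9 in OsTOP6A1 seedlings and 54.7, 72.1 and 69.3 in wild type seedlings, and AT3G01190 read 149.0, 211.9 and 170.5 in OsTOP6A1 seedlings and 157.7, 215.3 and 203.1 in wild type seedlings. In both genes the genotypes overlapped and replicate 1 was low in each. Without OsTOP6A1 replicate 1, 4 of the 43 genes rose and 5 fell (20.9%), beside 12.3% of all tested probe sets.

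**Figure D5:**
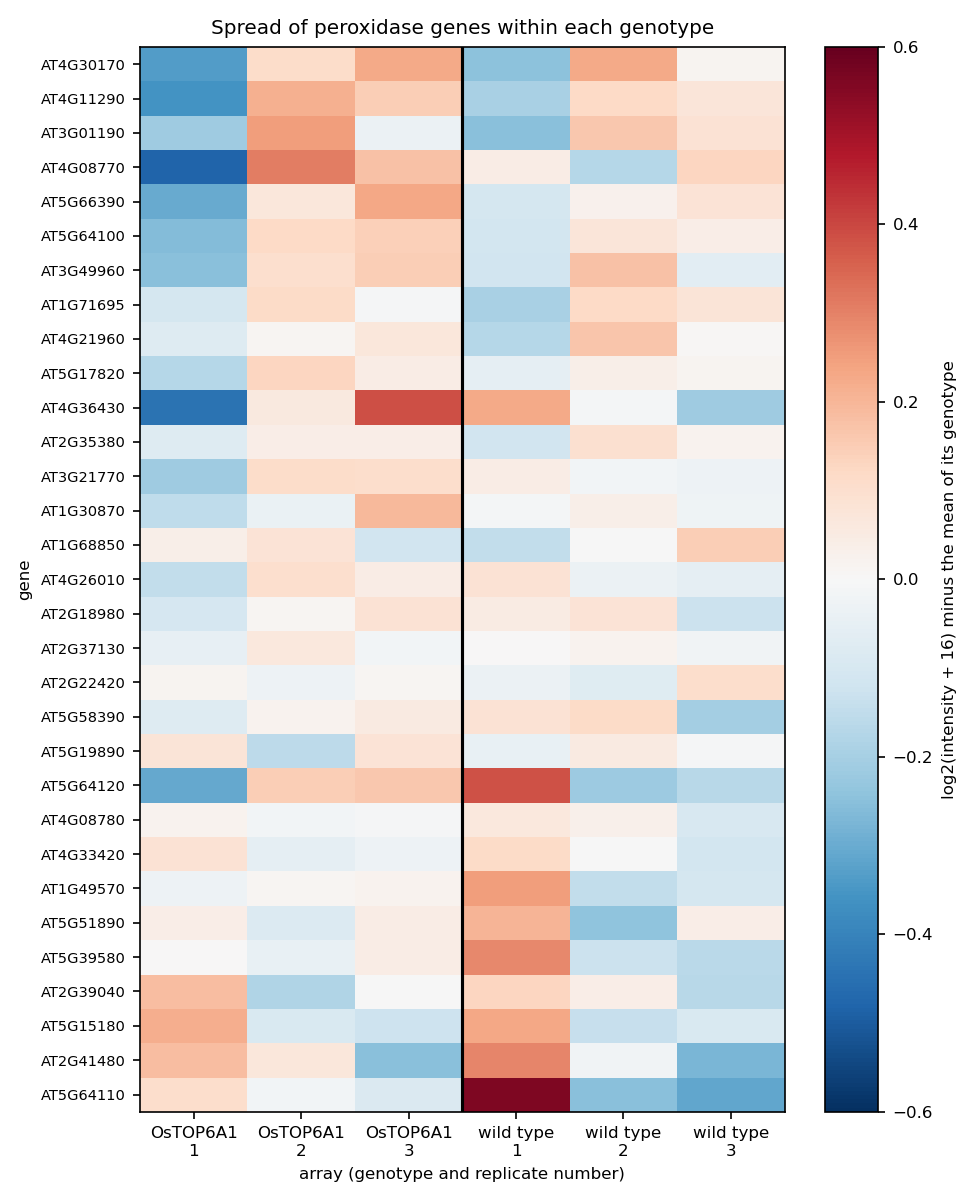
Deviation of log2(intensity + 16) from the mean of its genotype (colour) on each array (x axis) for the 31 genes with a mean of at least 16 (y axis, ordered by the summed deviation of the first replicates). The column of OsTOP6A1 replicate 1 is blue for most genes, and wild type replicate 1 is blue at the top and red at the bottom, most strongly for AT5G64110.

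Genes that work beside the secreted peroxidases were poorly covered. In 8 lists of 84 genes, for monolignol synthesis, laccases, NADPH oxidases, antioxidant enzymes, the Casparian strip, root hairs, roots and green tissue, 16 had a probe set of their own, of which 1 rose and 0 fell, beside 16.5% of all tested probe sets called in either direction. Before adjustment, 4 of these 16 genes had a limma p under 0.05. Across the whole series, 6944 out of 22746 had a limma p that low, so the count of 4 is no sign of added change in these lists. The rise was that of AT4G25090, 1 of 3 measured NADPH oxidases, which make the superoxide from which peroxidase substrate forms. It read 14.2, 19.3 and 16.8 in OsTOP6A1 seedlings and 5.0, 12.2 and 7.3 in wild type seedlings. This rise of 0.45 on the log2 scale (SE 0.12, limma adjusted p = 0.0402) was lost when any array but wild type replicate 2 was left out (adjusted p of up to 0.127). With all arrays it was also lost with quantile normalization (adjusted p = 0.06), at pseudocounts of 1 and 64 (adjusted p = 0.105 and 0.0562) and without variance moderation (adjusted p = 0.151). HCT, of monolignol synthesis, had a log2 fold change of 0.03 and CCR2 of 0.03, and LAC16, the 1 measured laccase of 17 listed, was under 16 on every array. SAPX, the stromal ascorbate peroxidase, which belongs to another peroxidase class, had 132.6, 217.1 and 202.5 in OsTOP6A1 seedlings and 246.9, 297.9 and 310.2 in wild type seedlings. The genotypes of SAPX did not overlap, and its log2 fold change of -0.61 (SE 0.17) narrowly missed the threshold (limma adjusted p = 0.0519). TAPX, the other of 2 measured antioxidant enzymes, went the other way. Its log2 fold change was 0.23 (SE 0.10, limma adjusted p = 0.158), and its genotypes overlapped.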

How the data were processed

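The deposited table gives probe set intensities on a linear scale from 6 Affymetrix arrays. Per the labels' protocols, biotinylated cRNA was made from TRIzol-extracted total RNA. The software and scaling used by the authors are not stated in the labels or the file. Every array had a mean of 100.01 after trimming 2% at each end, so no further scaling was done. The number of arrays limits the precision. The p-values weigh the difference between the genotypes against the spread between replicates, which limma moderates with that of all probe sets. As the number of independent lines is not named, whether this spread covers variation between lines cannot be told.

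Of 22810 probe sets, 64 controls were left out. The annotation gave 13513 tested probe sets 1 gene, 503 several and 8730 none, and RefSeq (assembly TAIR10.1) gave 13436 a locus. The peroxidase names Prx37, PRX52 and PRXR1 are RefSeq's, while PRX25, PRX71 and PRX72 are those of the peroxidase list. No sequences were used.

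Genotypes were compared on log2(intensity + 16) over all 6 arrays, OsTOP6A1 minus wild type, with limma 3.58.1 in R 4.3.3 (lmFit, eBayes). P-values were adjusted by Benjamini-Hochberg over 22746 probe sets, with a threshold of 0.05. Fit and calls were tested on simulated arrays. Named were all genes past the threshold, measured genes of the role lists, neighbours of called genes, the 5 brightest, and up to 2 called genes per related list. The uncalled HCT, CCR2, LAC16, SAPX and TAPX were named outside this rule. Genes and lists, drawn from general knowledge, were chosen with earlier results of these data known. The alternatives were quantile normalization, median centring, pseudocounts of 1 and 64, removal of dim (mean under 16) or cross-hybridising probe sets, an intensity trend, no variance moderation, a replicate block, and each array left out.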

Additional observations from a re-analysis of the deposited data

How the results depend on the processing

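Among the 43 peroxidase genes the count of 12 calls became 7 with a pseudocount of 1 (4 falls, and 2143 calls over all probe sets) and 5 without variance moderation (2 rises, 3 falls, and 1930 calls over all probe sets). It lay between 10 and 14 in the other settings that kept all arrays, 1 of which tested only 31 of the 43 genes. Leaving out single arrays gave 7 to 11 calls (3 to 4 rises and 4 to 7 falls), with 2181 to 3433 calls over all probe sets beside 3751 with all arrays. These settings hold fewer samples, and for the others the cause was not tested. Calls in the related lists, 1 as reported, were 0 with pseudocounts of 1 and 64 and without variance moderation, 2 with an intensity trend and 2 with the replicate block, and 0 to 1 without single arrays. With the replicate block 14 of the 43 peroxidase genes passed (32.6%, 5 rises and 9 falls), beside 15.8% of all tested probe sets. Of these 14, 11 were among the 12. AT4G36430 was lost (limma adjusted p = 0.079), and AT1G14550, AT3G49960 and AT4G30170 were gained (limma adjusted p = 0.0463, 0.0424 and 0.0341). Arrays of the same number had deviations correlated across probe sets at 0.191, 0.0572 and 0.113. Replicate 1 of either genotype correlated at -0.159 to -0.08 with the other numbers of the other genotype. Deviations were taken from the mean of each genotype, so these values are not independent of the correlation of the first replicates. Over the 31 peroxidase genes with a mean of at least 16, the correlation of the first replicates was 0.368. Replicate 2 of OsTOP6A1 correlated better with wild type replicate 3 (0.0818), so the numbers were not taken as pairs. Leaving out probe sets with a mean under 16 gave 14 calls among the 31 genes left (45.2%), beside 27.5% of the 14745 probe sets left. AT3G49960, AT2G18980 and AT5G17820 were gained, AT5G58400 was no longer tested, and the cause was not tested. Signs turned for 6 of the named genes, none of them (0) called as reported. These were AT5G51890 with quantile normalization (0.0038) and AT5G19880 with median centring (0.0082) and a pseudocount of 1 (0.023). Without single arrays the log2 fold changes ranged from -0.10 to 0.30 for AT4G08770, -0.075 to 0.080 for AT5G19880, -0.16 to 0.065 for AT5G39580, -0.14 to 0.083 for AT5G51890, -0.041 to 0.39 for AT5G64110 and -0.21 to 0.092 for AT5G64120. Signal over background limits 11 of the 43 probe sets, which were under 16 on every array.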
